A study of Mus musculus with 13 samples.

Results

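The ERK feedback genes described here are 10 transcripts that cells make in response to ERK signalling and whose products, in most cases, damp it: the phosphatase genes Dusp6 and Dusp4, the ETS transcription factor genes Etv1, Etv4 and Etv5, the Sprouty genes Spry2 and Spry4, the Spred genes Spred1 and Spred2, and the immediate-early gene Egr1. They were chosen by name, not by a threshold on their values but with earlier results of these data known, and all 10 were found among the 20325 genes of the deposited tables. The 13 RNA-seq libraries came from pre-iPSCs, stalled intermediates on the way from mouse embryonic fibroblasts (MEFs) to induced pluripotent stem cells, and from V6.5 mouse embryonic stem cells (ESCs). Wild-type (WT) and Kdm3b knockout (KO) pre-iPSCs were each sampled on days 0, 2 and 10 of a course of 50 µg/mL ascorbic acid and 2i, with replicates A and B in each of the 6 groups and 1 ESC library. Kdm3b encodes a histone H3K9 demethylase. 2i joins CHIR-99021, an inhibitor of the kinase GSK3, with PD-0325901, an inhibitor of MEK, the kinase that activates ERK. All cells grew in ESC medium with 15% FBS and leukemia inhibitory factor, treated medium was renewed at 2-day intervals, and cultures were split on day 4. The day 0 libraries are named for DMSO in their titles, while their treatment label, like that of the ESC library, reads AA+2i, so the treatment of the ESCs is uncertain. Ascorbic acid, CHIR-99021 and PD-0325901 were given together, and their parts in any change cannot be told apart. The labels give no clone number, sex or origin of the replicates, so the p-values measure the spread between these libraries, which may be technical.

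ERK is the last kinase of the cascade that runs from receptor tyrosine kinases through Ras, Raf and MEK. Once active, it raises transcription of its own inhibitors, so the level of their transcripts is widely used as a readout of the pathway: DUSP proteins dephosphorylate ERK, and Sprouty and Spred proteins act upstream on Ras and Raf. Etv1, Etv4 and Etv5 form the PEA3 family of ETS factors, whose genes respond to FGF and ERK signalling, and Egr1 is switched on within minutes of ERK activation through serum response factor and its ETS partners. Mouse ESCs are kept in a naive state by 2i, in which MEK inhibition blocks the ERK signal that favours differentiation.

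RefSeq promoter windows on build GRCm38.p6 were searched for 6 of the 10 genes: Dusp6, Etv1, Etv5, Spry2, Spred1 and Spred2. They made up 8 windows of 250 bases before and 50 bases after the start site. Dusp4, Etv4, Spry4 and Egr1 were not searched. The counts below therefore say nothing of sites at these genes, nor of a serum response factor site at Egr1. Fixed searches, on both strands, took the Capicua octamer forms TGAATGAA and TGAATGGA, the ETS site CCGGAAGT and the CArG box of serum response factor. None of the 8 windows held any of these letters, which occur in 1.3%, 1.21%, 3.89% and 1.63% of all 32851 windows of the same length. Other forms of the Capicua octamer were not searched, so a window may still hold one. With TC in place of the leading TG, the form TGAATGGA lies upstream in Dusp6 and TGAATGAA in Spry2, both as the reverse complement. The share of all windows with these changed forms was not counted. The lack of a match above thus covers the searched letters only. The shorter ETS core CGGAAG, which the ETS site contains and which was added once the fixed searches were done, occurs in 16.9% of all windows and was found before the start site in the windows of Dusp6, Spred1 and Spred2. The 250 upstream bases of these 3 are shown because they are the windows with a match upstream, with the core or its reverse complement in capitals. They lie on the plus strand at chr10:99262981-99263230 (Dusp6), chr2:117120821-117121070 (Spred1) and chr11:19924192-19924441 (Spred2).
Dusp6: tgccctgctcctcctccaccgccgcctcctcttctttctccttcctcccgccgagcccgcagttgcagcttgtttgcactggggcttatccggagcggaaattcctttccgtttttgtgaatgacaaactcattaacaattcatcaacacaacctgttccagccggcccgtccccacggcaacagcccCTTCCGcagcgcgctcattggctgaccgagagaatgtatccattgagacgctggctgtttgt
Spred1: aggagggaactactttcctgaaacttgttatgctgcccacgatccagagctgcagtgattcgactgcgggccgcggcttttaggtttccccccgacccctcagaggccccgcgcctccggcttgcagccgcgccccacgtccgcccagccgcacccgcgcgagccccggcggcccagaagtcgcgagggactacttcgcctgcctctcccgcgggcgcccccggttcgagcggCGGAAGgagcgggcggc
Spred2: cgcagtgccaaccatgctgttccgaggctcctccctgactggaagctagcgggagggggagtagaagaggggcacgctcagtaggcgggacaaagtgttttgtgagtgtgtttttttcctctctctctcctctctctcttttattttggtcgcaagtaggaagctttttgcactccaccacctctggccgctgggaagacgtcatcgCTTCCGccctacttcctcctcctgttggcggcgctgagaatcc
Counting the start site as 0, the core spans bases -62 to -57 in Dusp6 and -43 to -38 in Spred2, on the minus strand in both, and bases -17 to -12 in Spred1, on the plus strand. Another core lies on the minus strand at bases 7 to 12 of the Spred1 window. A match describes the letters alone, and no binding was measured in these libraries.

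Library totals ran from 14891294 to 26430050 expected counts in the pre-iPSCs and reached 20083825 in the ESCs. Values by library below are CPM, the count scaled by that total, and folds between groups come from the fit of edgeR's quasi-likelihood test to 14324 genes in the 12 pre-iPSC libraries, as log2 fold changes with their standard errors (SE). A gene was called changed at a Benjamini-Hochberg adjusted p (FDR) under 0.05. Kdm3b lay between 145.7 and 261.5 CPM in the WT libraries and between 17.7 and 65.5 CPM in the KO libraries. Every pre-iPSC library thus matched its genotype label, which leaves the day and treatment labels unchecked. Nanog, which marks naive pluripotency, lay between 0.62 and 2.77 CPM at day 0, at 297.5 and 331.2 CPM in WT day 10, at 31.0 and 32.8 CPM in KO day 10, and at 291 CPM in the ESC library. At days 0 and 2 the B libraries carried more of their counts on long transcripts than the A libraries (3712 to 3916 against 2988 to 3135 bases per count), with day 10 between them at 3325 to 3436. In bulk RNA, fewer cells of a type and less RNA per cell cannot be told apart.

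By day 2 the ERK phosphatase transcripts had dropped to between 10.8% and 14.4% of their day 0 means in both genotypes, and 5 of the 10 feedback genes in WT and 6 in KO were called lower, against 1.98% and 2.37% of all tested genes called lower. The KO count was 3 to 5 in the 12 fits that left out 1 library, 3 without any 1 of the day 2, KO day 0 and KO day 10 libraries, and 0 in a fit of only the 4 KO libraries compared. By day 10, 8 of 10 were called lower in WT, against 13.1% of all genes, and 6 of 10 in KO, against 5.19%, with 3 in KO without KO day 0 B or KO day 10 B. The members' median log2 change was -1.43 in WT and -1.15 in KO at day 2, and -3.12 in WT and -0.87 in KO at day 10, while the median of all genes stayed between -0.03 and 0.01. Between days 2 and 10, 5 genes were called lower in WT, against 11.2% of all genes, and 0 of 10 were called in KO, against 3.1% of all genes called in either direction. In that KO comparison 3 genes had an unadjusted p under 0.05 in edgeR, and DESeq2 called 1. The WT and KO changes share no libraries with each other, but the fit drew its estimate of the spread from all 12 libraries. At days 0 and 2, A and B also deviated alike in both genotypes (r of the A minus B differences across genes, 0.74 to 0.81).

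**Figure D1:**
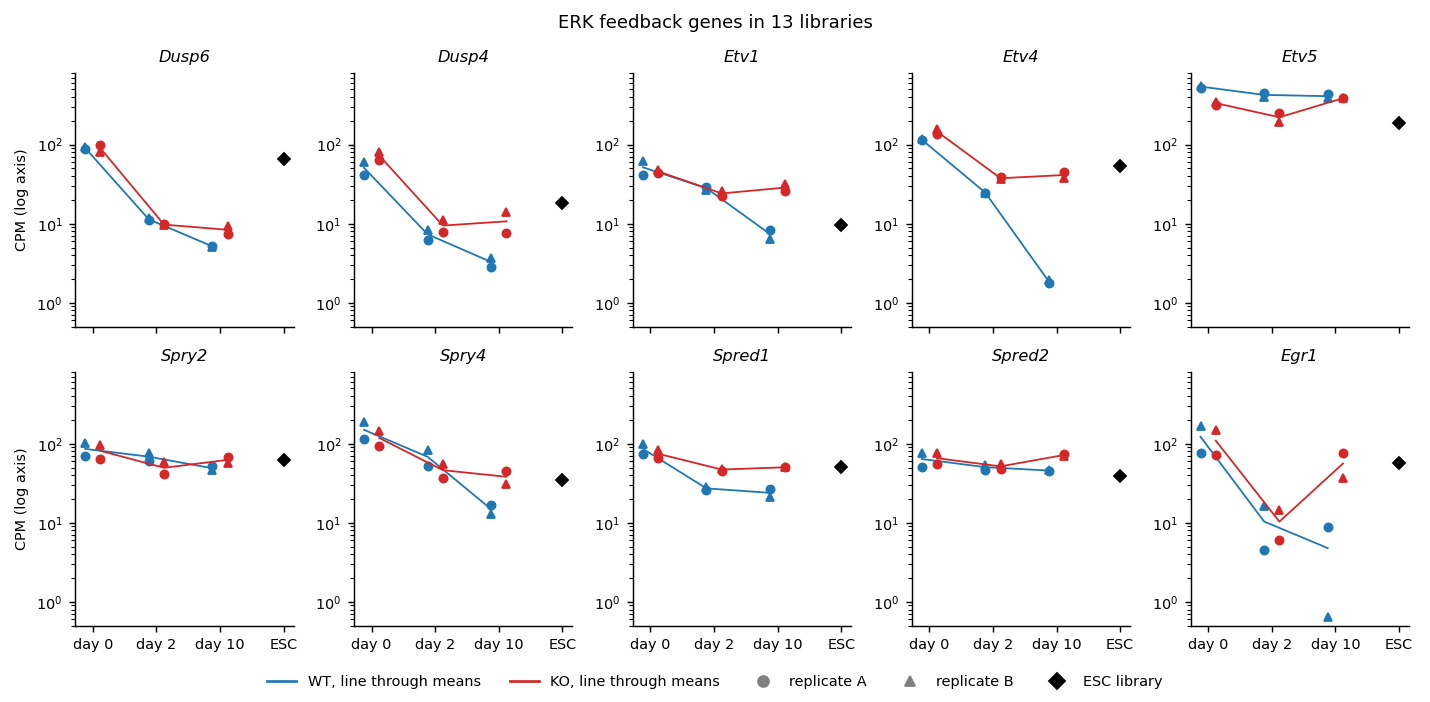
Level of each of the 10 genes in every library, in CPM on a log axis, by day for WT (blue) and KO (red), with replicates A (circles) and B (triangles), lines through the group means and the 1 ESC library as a diamond. Dusp6 falls alike to day 2 in both genotypes, and Etv4 in WT day 10 lies at 1.76 and 1.94 CPM while KO day 10 stays at 45.1 and 37.5 CPM.

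Dusp6 encodes a cytoplasmic phosphatase that acts on ERK with high selectivity. In WT it measured 88.0 CPM in A and 93.5 CPM in B at day 0, 11.03 and 11.7 CPM at day 2, and 5.29 and 5.05 CPM at day 10. In KO it measured 99.9 and 80.1 CPM at day 0, 9.93 and 9.54 CPM at day 2, and 7.50 and 9.27 CPM at day 10. The libraries of each later day lay below all day 0 libraries in both genotypes, and the day 10 libraries of KO lay above those of WT. The WT mean stood at 12.5% of day 0 on day 2 and at 5.70% on day 10, and the KO mean at 10.8% and 9.32%. The change to day 2 was -3.03 ± 0.20 (log2, SE) in WT (FDR = 0.000373) and -3.23 ± 0.20 in KO (FDR = 0.000152), and the change to day 10 was -4.19 ± 0.21 in WT (FDR = 2.02e-05) and -3.49 ± 0.21 in KO (FDR = 4.79e-05).

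Dusp4 encodes a nuclear phosphatase of ERK and related kinases. Its WT levels were 41.9 and 60.0 CPM at day 0, 6.24 and 8.44 CPM at day 2, and 2.87 and 3.69 CPM at day 10. In KO they were 64.2 and 81.2 CPM, then 7.96 and 10.98 CPM, then 7.56 and 13.9 CPM. Day 0 stood above both later days in each genotype, and in KO the ranges of days 2 and 10 overlapped. The change to day 2 was -2.82 ± 0.32 in WT (FDR = 0.00215) and -2.96 ± 0.32 in KO (FDR = 0.00109), and at day 10 Dusp4 was 3.38-fold higher in KO than in WT (FDR = 0.00346). From day 2 to day 10 Dusp4 fell in WT by 1.18 on the log2 scale (FDR = 0.0223), a call lost without WT day 2 B (0.123), WT day 10 A (0.146) or WT day 10 B (0.0651).

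The 3 PEA3 genes moved apart. Etv4 read 113.9 and 117.5 CPM in WT at day 0, 24.8 and 24.7 CPM at day 2, and 1.76 and 1.94 CPM at day 10, the last from 32 and 30 counts. In KO it read 138.0 and 155.5 CPM, then 38.6 and 36.6 CPM, then 45.1 and 37.5 CPM. No WT day 10 library came near any KO library, and the KO libraries of days 2 and 10 overlapped. Its WT mean at day 10 was 1.60% of day 0, and its KO mean 28.1%. The WT change from day 2 to day 10, -3.76 ± 0.18 (FDR = 2.54e-05), stood beside a KO value of 0.08 ± 0.15 (FDR = 0.848).

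Etv1 started at 41.8 and 61.6 CPM in WT and stood at 29.2 and 27.0 CPM at day 2 and at 8.38 and 6.40 CPM at day 10. In KO it started at 43.8 and 48.0 CPM and stood at 22.6 and 25.7 CPM, then at 25.6 and 31.7 CPM. The genotypes overlapped at day 0, KO lay just below WT at day 2, and KO lay well above WT at day 10. The change to day 10 was -2.85 ± 0.22 in WT (FDR = 5.9e-05) and -0.74 ± 0.21 in KO (FDR = 0.0429), and the KO level at day 10 was 4.00-fold the WT level (FDR = 0.000319). The call in WT at day 2 (-0.90 ± 0.21, FDR = 0.0409) was lost when any 1 of the 12 libraries was left out (FDR 0.0535 to 0.279). The call in KO at day 2 (-0.94 ± 0.21, FDR = 0.0294) was kept only without WT day 0 or WT day 10 libraries (FDR up to 0.124), and that in KO at day 10 only without WT day 0 A or B (FDR up to 0.285).

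Etv5 was the most abundant of the 10 in CPM and per length, at 239 and 335 TPM, the length-scaled unit, in the WT day 0 libraries. It measured 527 and 558 CPM in WT at day 0, 455 and 397 CPM at day 2, and 435 and 386 CPM at day 10. In KO it measured 321 and 349 CPM, then 248 and 196 CPM, then 389 and 385 CPM. KO lay below WT at days 0 and 2, and at day 10 the KO levels sat at the low end of the WT range. No change over time was called (day 10 change -0.46 ± 0.22 in WT, FDR = 0.139, and 0.14 ± 0.22 in KO, FDR = 0.748). At day 2 Etv5 was lower in KO than in WT by -0.87 ± 0.22 (FDR = 0.0378), a call kept only without WT day 0 A, WT day 0 B, KO day 0 B or KO day 2 A (FDR up to 0.232 over the 12 fits that leave out 1 library).

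Spry4, a Sprouty inhibitor of receptor tyrosine kinase signalling, fell in steps in WT. Its levels were 114.2 and 185.6 CPM at day 0, 52.9 and 83.8 CPM at day 2, and 16.9 and 12.8 CPM at day 10. In KO they were 92.7 and 143.6 CPM, then 36.4 and 56.2 CPM, then 45.2 and 31.2 CPM. Replicate B stood above A at days 0 and 2 in both genotypes and below it at day 10, and within each letter the drop to day 2 was nearly equal (-1.11 in A and -1.15 in B for WT, -1.35 in both for KO, log2 ratio of CPM). The WT change at day 10 was -3.38 ± 0.35 (FDR = 0.000195) and the KO change -1.68 ± 0.33 (FDR = 0.00973), the latter lost without KO day 0 B (0.0721) or KO day 10 B (0.108). At day 2 the call was made in KO (-1.37 ± 0.33, FDR = 0.0417, lost without any 1 of the 12 libraries at 0.0542 to 0.219) and missed in WT (-1.16 ± 0.32, FDR = 0.0808).

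Spry2, the other Sprouty gene, changed by less than 2-fold in the fit of each comparison over time. It lay at 69.3 and 102.8 CPM in WT at day 0, 60.3 and 76.9 CPM at day 2, and 51.6 and 46.3 CPM at day 10. In KO it lay at 65.0 and 97.7 CPM, then 41.0 and 58.3 CPM, then 68.2 and 56.8 CPM. The day 0 and day 2 ranges overlapped in WT, and the day 0 and day 10 ranges overlapped in KO. It was called lower at day 10 in WT (-0.86 ± 0.23, FDR = 0.0197), a call lost without WT day 0 B (0.159), WT day 10 A (0.0779) or WT day 10 B (0.12), and its KO value was -0.43 ± 0.23 (FDR = 0.272).

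Spred1, which recruits the Ras inhibitor neurofibromin to the membrane, fell to a steady level by day 2, lower in WT than in KO. In WT it measured 74.4 and 97.9 CPM at day 0, 26.2 and 28.3 CPM at day 2, and 26.6 and 21.3 CPM at day 10. In KO it measured 66.0 and 83.3 CPM, then 45.8 and 48.5 CPM, then 50.2 and 50.6 CPM. Each genotype held about the same level from day 2 to day 10, and both KO levels were above both WT levels on each of those days. The day 2 change was -1.69 ± 0.17 in WT (FDR = 0.00162) and -0.67 ± 0.16 in KO (FDR = 0.0458, lost without any 1 of the 12 libraries at 0.064 to 0.24). KO exceeded WT by 0.86 ± 0.16 at day 2 (FDR = 0.011) and by 1.12 ± 0.17 at day 10 (FDR = 0.0013). The day 2 difference lost its call without WT day 2 A (0.0855), WT day 2 B (0.105) or KO day 2 B (0.0637). The KO change at day 10, -0.62 ± 0.16 (FDR = 0.0338), kept its call only without WT day 10 B or KO day 2 A, with an FDR up to 0.224 otherwise.

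Spred2, its paralog, measured 51.0 and 77.4 CPM in WT at day 0, 46.6 and 54.5 CPM at day 2, and 45.4 and 46.2 CPM at day 10. In KO it measured 55.9 and 75.4 CPM, then 47.6 and 55.9 CPM, then 74.5 and 69.6 CPM. The day 0 and day 2 ranges overlapped in both genotypes, and at day 10 both KO libraries were above both WT libraries. No change over time was called, with -0.53 ± 0.19 in WT at day 10 (FDR = 0.0538), and KO exceeded WT at day 10 by 0.70 ± 0.19 (FDR = 0.019, lost without any 1 of the 4 day 10 libraries at 0.0755 to 0.118).

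Egr1, a zinc finger transcription factor, had the widest spread between replicates. In WT it read 75.7 and 169 CPM at day 0, 4.55 and 16.2 CPM at day 2, and 8.93 and 0.65 CPM at day 10, the last from 10 counts. In KO it read 71.4 and 147 CPM, then 6.04 and 14.6 CPM, then 75.5 and 37.0 CPM. All day 2 libraries lay below all day 0 libraries, as did the WT day 10 libraries, while KO day 10 A was above KO day 0 A. The drop to day 2 missed the threshold in both genotypes (WT -3.60 ± 1.03, FDR = 0.0878, and KO -3.43 ± 1.02, FDR = 0.0962). Within each letter the log2 ratio of CPM was -4.06 in A and -3.39 in B for WT, and -3.56 and -3.33 for KO. The WT drop to day 10 was called (-4.70 ± 1.09, FDR = 0.00992). Omitting replicate A of WT day 10 gave -7.60, omitting its replicate B gave -3.82, and omitting replicate B of WT day 0 gave -4.09. The KO value was -1.004 ± 0.93 (FDR = 0.556), and KO exceeded WT at day 10 by 3.59 ± 1.05 (FDR = 0.0287, lost without WT day 10 B at 0.0935, KO day 10 A at 0.125 or KO day 10 B at 0.0573).

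Between genotypes at the same day, 0 of 10 genes were called at day 0, against 8.29% of all genes in either direction, edgeR giving 2 an unadjusted p under 0.05 and DESeq2 calling 1. At day 2, 3 were called, against 10.5% of all genes: Etv4 and Spred1 higher in KO and Etv5 lower. This count was 0 without WT day 2 A, WT day 2 B or KO day 2 B and 1 when either WT day 10 library was left out. Etv4 stood 0.68 ± 0.15 higher (FDR = 0.0243, lost without any 1 of the day 2 or WT day 10 libraries at 0.0506 to 0.187). At day 10, 8 of 10 were higher in KO, against 12.4% of all genes, and Etv5 and Spry2 were not called. The count was 4 without WT day 10 B and 5 without KO day 10 A or KO day 10 B. The sizes ran from 1.63-fold for Spred2 and 1.68-fold for Dusp6 to 12.01-fold for Egr1 and 23.0-fold for Etv4. The call of Dusp6 was lost without WT day 10 A (FDR = 0.0722), WT day 10 B (0.106) or KO day 10 B (0.0971). The size in Egr1 rested on single libraries: the log2 difference of 3.59 became 6.50 on omitting replicate A of WT day 10, 2.71 on omitting its replicate B and 2.995 on omitting replicate A of KO day 10. The call of Spry4 (1.41 ± 0.33) was lost without WT day 10 B (0.0916) or KO day 10 A (0.0935). The day 10 comparison between genotypes uses the same WT and KO day 10 libraries as the changes over time.

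Whether a gene fell alike or less in KO was read from the difference of the 2 changes, KO minus WT, with its 95% interval. At day 2, 0 of 10 differences were called in edgeR, against 0.195% of all genes, where 1 had an unadjusted p under 0.05, and DESeq2 called 1. A fall was taken as alike where the gene was called lower in both genotypes and the interval lay within 2-fold either way. Dusp6 (-0.19, interval -0.79 to 0.41), Etv1 (-0.04, interval -0.70 to 0.62) and Etv4 (0.29, interval -0.20 to 0.78) met this at day 2. Etv1 lost its WT call, and so its class, whichever library was left out (WT log2 change -1.11 to -0.65). The class of alike genes was not recounted in the alternative fits. Dusp4 and Spred1 were called lower in both genotypes with intervals that reached past 2-fold: -1.09 to 0.82 for Dusp4 and 0.49 to 1.54 for Spred1. The Spred1 difference of 1.02 ± 0.23 had an FDR of 0.176. Spry4 was called lower in KO only, without a called difference, and Etv5, Spry2, Spred2 and Egr1 were called lower in neither. These missed calls depend on the fit. With the replicate letter as a block at days 0 and 2, which the labels do not call for, all 10 genes were called at day 2 in both genotypes.

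At day 10 the differences were called for 4 of 10 genes, all toward a smaller fall in KO, against 6.35% of all genes called in that direction. They were 4.13 ± 0.23 for Etv4 (interval 3.60 to 4.67, FDR = 0.000128), 2.11 ± 0.30 for Etv1 (1.44 to 2.78, FDR = 0.00286), 1.70 ± 0.46 for Spry4 (0.66 to 2.73, FDR = 0.0432) and 1.27 ± 0.23 for Spred1 (0.75 to 1.80, FDR = 0.00852). The calls of Etv4, Etv1 and Spred1 held in all 12 leave-one-out fits, and that of Spry4 was kept only without KO day 2 A or KO day 2 B, with an FDR up to 0.168. No gene met the rule for alike at day 10. Dusp6 and Dusp4 fell in both genotypes, with differences of 0.70 (interval 0.09 to 1.31, FDR = 0.136) and 1.19 (interval 0.21 to 2.17, FDR = 0.114), so falls equal within 2-fold or smaller in KO by more are both within their intervals. Spry2 and Egr1 were called lower in WT only, with intervals of -0.32 to 1.17 and 0.58 to 6.80, and Etv5 and Spred2 in neither. The difference in Egr1 of 3.69 ± 1.37 did not pass (FDR = 0.122). These classes depend on the treatment of the replicate letters: A and B deviated alike across genes in the groups of days 0 and 2, and with the letter as a replicate block for those days, which the labels do not call for, all 10 differences at day 10 were called and 10 genes were classed as falling less in KO, as was 1 gene at day 2.

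**Figure D2:**
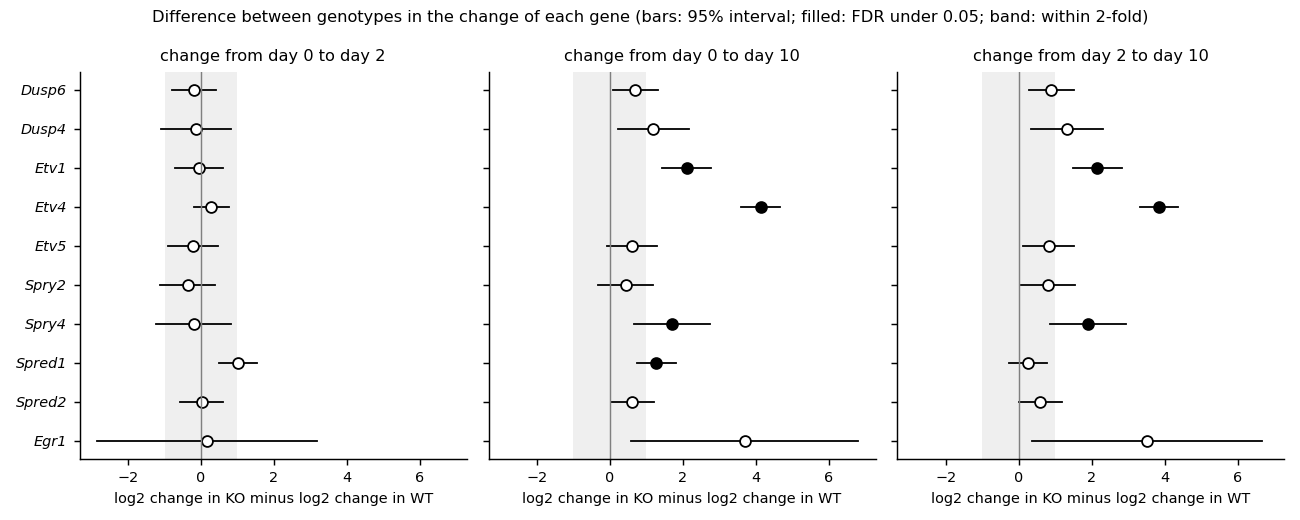
Difference between genotypes in each gene's log2 change (KO minus WT) from day 0 to day 2, from day 0 to day 10 and from day 2 to day 10, as points with 95% intervals; filled points passed an FDR of 0.05 and the band marks differences within 2-fold. Most day 2 points sit near 0, Spred1 at 1.02, and Etv4 reaches 4.13 at day 10.

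The change from day 2 to day 10 was compared in the same way, a contrast added after the values by library were seen. Etv4 (3.85 ± 0.23, FDR = 0.000256), Etv1 (2.15 ± 0.30, FDR = 0.00317) and Spry4 (1.90 ± 0.46, FDR = 0.0321) were called, against 4.83% of all genes called in that direction. Spred1 was at 0.26 ± 0.23 (interval -0.27 to 0.78, FDR = 0.595). Etv4 and Etv1 fell further in WT after day 2, and their KO libraries did not, whereas Spred1 held its day 2 levels in both genotypes. The Spry4 call was lost without WT day 2 B, KO day 2 A or any 1 of the 4 day 10 libraries (FDR 0.0604 to 0.136).

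**Figure D3:**
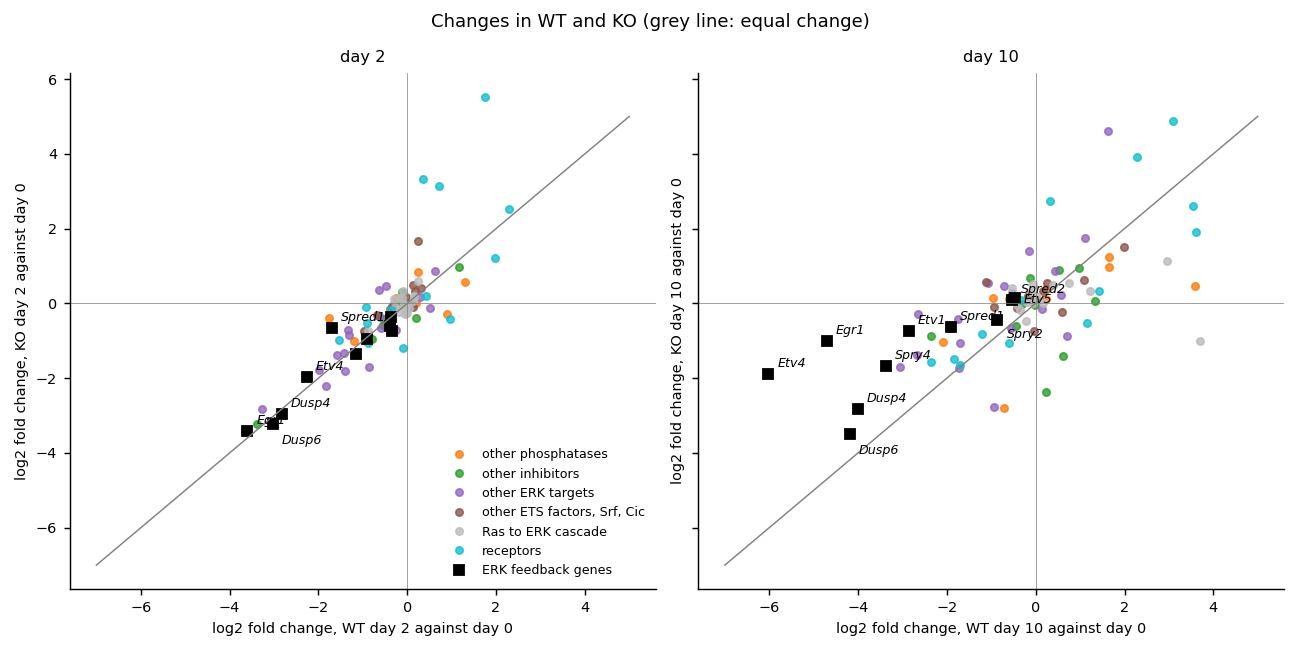
Log2 fold change against day 0 in WT (horizontal) and KO (vertical) at day 2 and day 10 for the 10 feedback genes (black squares) and the tested genes of 6 other lists of the pathway (coloured circles); the grey line marks equal change. At day 2 the squares lie near the line apart from Spred1 (-1.69 in WT, -0.67 in KO), and at day 10 Etv4 (-6.02 in WT, -1.89 in KO) and Egr1 (-4.70, -1.004) lie above it.

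In the ESC library, grown at an uncertain treatment, all 10 genes were expressed, from 9.76 CPM for Etv1 (exact 95% binomial interval 8.44 to 11.2, counting error only) to 188 CPM for Etv5 (interval 182 to 194). The WT day 10 mean and the ESC level were within 1.32-fold of each other for Etv1, Spry2 and Spred2, and far apart for Etv4 (53.7 CPM in ESCs, 29.0-fold the WT day 10 mean), Dusp6 (64.9 CPM, 12.6-fold), Egr1 (57.5 CPM, 12.02-fold) and Dusp4 (18.4 CPM, 5.61-fold). The KO day 10 mean and the ESC level were within 1.30-fold of each other for Etv4, Spry2, Spry4, Spred1 and Egr1, though for Egr1 the libraries lay on both sides of it at 75.5 and 37.0 CPM, while Dusp6 in ESCs was 7.74-fold the KO day 10 mean. Etv5 was 2.18-fold higher in WT day 10 and 2.06-fold higher in KO day 10 than in ESCs. With 1 ESC library there is no replicate check of these folds.

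**Figure D4:**
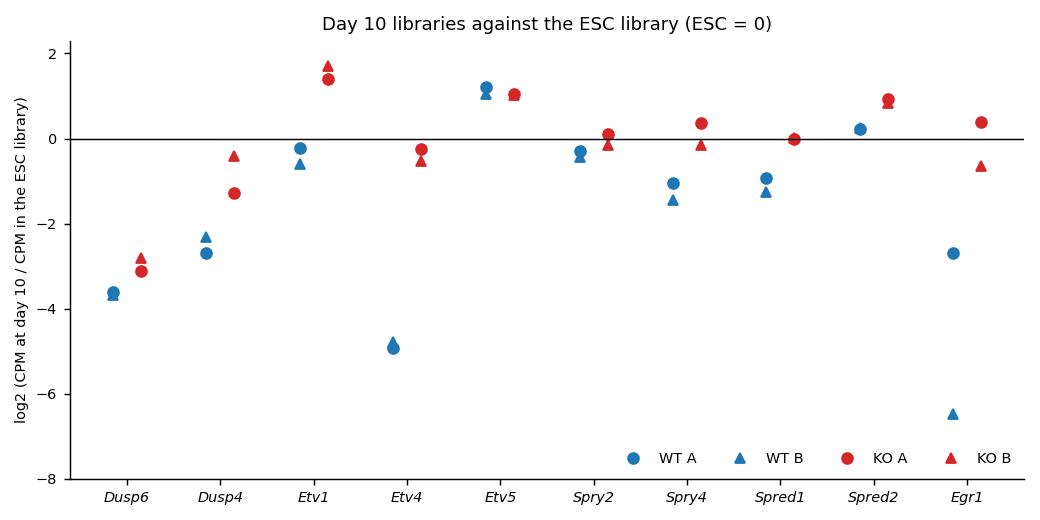
Log2 ratio of the CPM of each day 10 library to that of the ESC library, for WT (blue) and KO (red), replicates A (circles) and B (triangles); 0 is the ESC level. Dusp6 lies below the ESC level in all 4 libraries, and Etv5 above it in all 4.

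Ordered by group mean in CPM over the 6 pre-iPSC groups and the ESC library, the highest mean was at day 0 for every gene but Spred2, whose KO day 10 mean of 72.0 CPM was above its KO day 0 mean of 65.6 CPM, with overlapping libraries. The WT day 10 group was lowest for Dusp6, Dusp4, Etv1, Etv4, Spry2, Spry4, Spred1 and Egr1, and the ESC library was lowest for Etv5 and Spred2. WT and KO overlapped at day 0 for every gene but Dusp4, Etv4 and Etv5, whose KO libraries were above (Dusp4, Etv4) or below (Etv5) those of WT without a called difference. At the low end, the libraries of WT day 10 and WT day 2 overlapped for Spred1 and Egr1, those of WT day 10 and KO day 2 for Spry2, and those of Spred2 in WT day 10 lay just below those of WT day 2. The ESC level lay between the day 0 means and all later means for Dusp6, Dusp4, Etv4, Spred1 and Egr1, within the range of the KO day 10 libraries for Spred1 and Egr1.

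Other genes of the pathway were taken from lists chosen by name, and their counts stand against shares of all tested genes of 1.98% lower and 3.32% higher in WT and 2.37% and 4.02% in KO at day 2, and of 13.1% lower and 21% higher in WT and 5.19% and 9.93% in KO at day 10. Of 20 other tested transcripts induced by growth factors, 2 were called lower at day 2 in WT and 3 in KO, and 5 were lower and 1 higher at day 10 in WT against 3 lower in KO. The list's median was -0.63 in WT and -0.69 in KO at day 2, and -0.55 and -0.01 at day 10. Ccnd1, which encodes cyclin D1, was lower at day 2 in WT (-1.31 ± 0.20, FDR = 0.00831) and in KO (-0.85 ± 0.20, FDR = 0.0414). Phlda1 was lower in both at day 2 (-1.41 ± 0.27 in WT and -1.81 ± 0.28 in KO) and at day 10 (-2.68 ± 0.28 in WT and -1.39 ± 0.27 in KO). Emp1, a membrane protein gene, was lower at day 10 by -1.71 ± 0.31 in WT and -1.06 ± 0.30 in KO, and Mcl1, an anti-apoptotic BCL2 relative, was higher in WT by 0.57 ± 0.19.

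Among 9 other MAP kinase phosphatase genes, Dusp10 was the 1 called at day 2 in WT (1.30 ± 0.24 higher) and none was called in KO, while at day 10 WT had 3 lower and 3 higher and KO had 1 higher, the last about the share of all genes. Dusp14 (-2.08 ± 0.35), Dusp5 (-0.96 ± 0.24) and Dusp7 (-0.59 ± 0.18) were lower in WT at day 10, and Dusp9 rose by 3.58 ± 0.33 from a mean of 8.47 to 107 CPM, while KO day 10 averaged 9.45 CPM. Dusp1 was higher in WT at day 10 by 1.65 ± 0.44. Of 11 other inhibitors, Spred3 was lower (-2.37 ± 0.52) and Errfi1 higher (1.33 ± 0.27) in WT at day 10, and Spry1 was lower in KO (-2.37 ± 0.35). Spry1, another Sprouty gene, was lower at day 2 in WT (-3.37 ± 0.39, FDR = 0.00217) and in KO (-3.24 ± 0.37, FDR = 0.0015), and in WT it rose again from day 2 to day 10 by 3.61 ± 0.39 (FDR = 0.000333). Its change from day 0 to day 10 was 0.23 ± 0.32 in WT (FDR = 0.634), and the difference of KO minus WT was -2.61 ± 0.47 (FDR = 0.00845), opposite in sign to the 4 called among the feedback genes. Both Dusp10 and Spry1 were named after their values were seen. Of 11 further ETS factors and repressors, Etv6 was lower in WT at day 10 (-1.11 ± 0.19), with Ets2 (1.08 ± 0.16) and Gabpa (0.60 ± 0.14) higher. In KO Elk3 was lower (-0.73 ± 0.21) and Ets2 higher (0.63 ± 0.16).

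Of 17 tested genes of the Ras to ERK cascade, the adaptor gene Gab1 was called at day 2 in KO (0.60 ± 0.14) and none in WT, and at day 10 WT had 1 lower and 4 higher and KO 1 higher. These counts set the cascade genes no way apart from the shares of all genes. Gab1 rose by 2.97 ± 0.15 in WT and 1.14 ± 0.14 in KO at day 10, and Map2k1, which encodes the drug's target MEK1, by 1.21 ± 0.29 in WT. Of 13 receptor genes, 1 was lower and 4 were higher in WT at day 10 and 2 were higher in KO, which likewise sets them no way apart. Egfr was lower in WT (-2.36 ± 0.51), Kit higher in WT (3.54 ± 0.74) and in KO (2.60 ± 0.71), and Met higher in KO (2.75 ± 0.46).

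Cell type markers differed between the genotypes at day 10 and at the earlier days too. Of 12 naive pluripotency markers, 5 were called lower in KO than in WT at day 0 (median -2.71) and 10 at day 2 (median -2.84), and of 6 tested trophectoderm markers 3 were lower on each of those days, against 5.59% of all genes at day 0 and 6.16% at day 2. At day 10, 10 of the 12 were called lower in KO, against 19.9% of all genes. All 12 naive pluripotency markers summed to 6088.5 to 6902.8 CPM in WT day 10 and 3357 to 3963 CPM in KO day 10. Pou5f1 went the other way, at 1265 and 1387 CPM in WT day 10 and 2510 and 3185 CPM in KO day 10, most of the KO sum. At day 0 the sum was 4337 to 8330 CPM in WT and 3998 to 8810 CPM in KO, so it does not measure naive pluripotency alone. Of 7 tested neural markers, 3 were higher in KO at day 10 and 1 was lower, against 12.4% and 19.9% of all genes. Their sum at day 10 was 151 to 167 CPM in WT and 462 to 497 CPM in KO. At day 0, 2 of the 7 were lower in KO and 0 higher, against 5.59% and 2.69% of all genes. Sox1 averaged 12.3 CPM in WT day 10 and 150 CPM in KO day 10, while Tubb3 went the other way, at 25.6 CPM and 2.78 CPM. The 12 fibroblast markers summed to 121 to 157 CPM in WT day 10, 64.2 to 82.1 CPM in KO day 10 and 347 CPM in the ESC library, with 1 to 2 of the 12 at 0 counts in WT day 10 and 2 to 6 in KO day 10. Col1a1, a collagen gene, was at 49.6 and 77.4 CPM in WT day 10 and at most 0.50 CPM in KO day 10. The trophectoderm markers, 7 found of 8, summed to 131.5 to 134 CPM in WT day 10, 7.5 to 12.2 CPM in KO day 10 and 188 CPM in the ESC library. Most of the WT sum was the keratin gene Krt18, at a mean of 84.7 CPM in WT day 10 and at 154 CPM in the ESC library. Cdx2 lay at 0.55 and 0.71 CPM in WT day 10 and at 0.19 and 0.30 CPM in KO day 10. The 7 primitive endoderm markers summed to 16.3 to 19.0 CPM in WT day 10 and 5.0 to 5.5 CPM in KO day 10. At day 0 they went the other way, at 2.06 to 2.97 CPM in WT and 5.03 to 8.07 CPM in KO. Of the 5 tested, 2 were called higher in KO at day 0, against 2.69% of all genes. Whether cells of these types were present, and their part in the differences of the feedback genes, was not tested.

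The gene outside the 10 whose level followed Dusp6 most closely over the 12 pre-iPSC libraries was the pseudokinase gene Trib2 (Pearson r = 0.98 of log2 CPM, among 10662 genes averaging 5 CPM or more), with group means of 50.6, 11.5 and 5.89 CPM in WT and 57.5, 6.78 and 9.91 CPM in KO at days 0, 2 and 10. Zfp828, Prx, Slc35d3 and Fam40a came next, all at r = 0.97. Prx, the periaxin gene, averaged 190, 24.5 and 13.6 CPM in WT and 165, 15.8 and 26.0 CPM in KO. Among the 10 genes, Dusp4 was nearest to Dusp6 (r = 0.96), Etv1 and Etv4 were nearest to each other (r = 0.97), and Etv5 had its nearest in Spry2 at r = 0.39. Over the 45 pairs r ran from 0.05 to 0.97 with a median of 0.79. The points share groups and libraries, so these values describe likeness and carry no test.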

How the data were processed

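The 10 genes and the other lists were chosen with earlier results of these data known. Per the submitters' processing notes, reads were handled with Bowtie2 and RSEM on mm9; their versions and settings are not given in the sources used. Per the file headers, the authors deposited for each library the RSEM expected count, TPM and FPKM of 20325 genes. Expected counts were rounded and tested; CPM is the count scaled by the library total, TPM served only for levels per length, and the deposited FPKM values were summed per library and not tested.

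Tests used edgeR 4.0.16 (R 4.3.3): quasi-likelihood, 1 mean for each of the 6 pre-iPSC groups, 12 libraries, 6 residual degrees of freedom, filterByExpr, TMM factors from 0.92 to 1.06, Benjamini-Hochberg adjustment over 14324 genes in each of the comparisons. The ESC library entered no test. The script was tested on simulated counts. SE is the log2 fold change over the square root of F, and intervals are 95%.

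Named were Kdm3b, the 10 genes, up to 3 called genes a list and direction in each change from day 0 (averaging 5 CPM or more, lowest FDR taken), and the 5 genes nearest to Dusp6. Of the lists, Spry3, Hras and Tfap2c were not found under these symbols. Alternatives were DESeq2 1.42.0, library totals, DESeq2 size factors, no filter, only the libraries compared, the replicate letter as a block, and each library left out.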

Additional observations from a re-analysis of the deposited data

Results flagged for a closer look

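Genes are listed here because their change over time differed between WT and KO by a test of that difference in edgeR. From day 0 to day 10 the log2 difference, KO minus WT, was 4.13 for Etv4, 2.11 for Etv1, 1.70 for Spry4 and 1.27 for Spred1, each with 2 libraries a group, and KO fell less in all 4. From day 2 to day 10, a contrast added after the values by library were seen, it was 3.85 for Etv4, 2.15 for Etv1 and 1.90 for Spry4. Neither Spry4 call held in all 12 fits that left out 1 library, with differences of 1.39 to 2.04 from day 0 and 1.62 to 2.24 from day 2. The calls of Etv4 and Etv1 held in all 12. Both sets of differences share the day 10 libraries. KO exceeded WT in Spred1 by 0.86 at day 2 and by 1.12 at day 10 (log2), and in Etv4 by 0.68 and 4.52.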

How the results depend on the processing

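The calls of Dusp6, Dusp4 and Etv4 in both genotypes at days 2 and 10, of Spred1 and Etv1 in WT at day 10, and of Etv4, Etv1 and Spred1 in the day 10 difference held in all 12 fits that left out 1 library. Over these fits the members called ranged from 3 to 5 (6 in the full fit) for KO day 2, 3 to 5 (6) for KO day 10, 0 to 3 (3) for KO against WT at day 2 and 4 to 8 (8) at day 10.

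The replicate letters share only a name by the labels. A minus B differences correlated across genes at 0.74 to 0.81 among the groups of days 0 and 2, at -0.06 to 0.05 between these and day 10, and at -0.03 between the day 10 groups. With the letter as a replicate block, the members called were 1 (0 without it) for KO day 10 against day 2, 1 (0) for KO against WT at day 0 and 5 (3) for the day 2 to day 10 difference. With the replicate block at days 0 and 2 only, they were 10 (5) for WT day 2, 10 (6) for KO day 2, 4 (0) for KO day 10 against day 2, 3 (0) and 5 (3) for KO against WT at days 0 and 2, 1 (0) for the day 2 difference, 10 (4) for the day 10 difference and 9 (3) for the day 2 to day 10 difference; the genes that fell less in KO were then 1 at day 2 and 10 at day 10.

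DESeq2 called 1 for KO day 10 against day 2, 1 for KO against WT at day 0, 1 for the day 2 difference (also the 1 gene that fell less in KO at day 2) and 5 for the day 2 to day 10 difference. Library totals without TMM gave 3 for KO day 2, and a fit of only the libraries compared gave 0 for KO day 2 and 0 for KO against WT at day 2, with fewer residual degrees of freedom.

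Values near 0 that were not called changed sign in some fits. Without 1 library the log2 ranges were, for KO against WT at day 0, -0.18 to 0.22 for Dusp6, -0.34 to 0.13 for Etv1, -0.32 to 0.23 for Spry2, -0.61 to 0.0462 for Spry4, -0.30 to 0.00331 for Spred1, -0.15 to 0.36 for Spred2 and -0.69 to 0.52 for Egr1. They were -0.67 to 1.17 for Egr1 at day 2 and -0.11 to 0.0762 for Etv5 at day 10. For the day 2 difference they were -0.38 to 0.0315 for Dusp6, -0.38 to 0.0482 for Dusp4, -0.30 to 0.16 for Etv1, -0.56 to 0.10 for Spry4, -0.28 to 0.23 for Spred2 and -0.56 to 1.28 for Egr1. For KO day 10 they were -0.0744 to 0.29 for Spred2 against day 0, and against day 2 -0.33 to 0.52 for Dusp4, -0.0391 to 0.25 for Etv4 and -0.60 to 0.00811 for Spry4. For WT day 10 against day 2 they were -0.23 to 0.0413 for Etv5 and -4.01 to 0.00205 for Egr1. Library totals turned Dusp6 (KO against WT at day 0, -0.0119) and Egr1 (day 2, -0.0139). The Spred2 day 2 difference turned to -0.0115 with DESeq2, -0.000183 with library totals, -0.0106 with DESeq2 size factors and -0.00723 without the filter.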
